A study of Glycine max with 16 samples.

Results

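The 2 arrays of non-stressed seeds at stage R7 were compared with the 3 arrays of non-stressed seeds at stage R6. These 5 arrays were chosen by their sample titles, out of 16 arrays in all, and no measured value entered the choice. The seeds came from soybean (Glycine max) cultivar MG/BR 46 (Conquista), which the study used as its cultivar susceptible to green seed. Plants stood in pots in a polytunnel (24.7 °C on average) with free water, and at R5.5 some pots were moved to a greenhouse at 39.5 °C by day and watered only on wilting, whereas the non-stressed pots stayed in place. All 5 arrays were therefore from plants without heat or water stress and differed, by the labels, in the stage of harvest. Total RNA was taken from whole seeds, seed coat and embryo together, with at least 50 seeds per sample by the labels, where the methods give a smaller number. The pots of a condition, 6 with 4 plants each, had been pooled into the biological replicates. Stage was scored on plant and pod, followed by a selection on seed colour, and the study describes the R7 seeds as a mixture that differed in how far chlorophyll loss had gone. Partly for this reason the study left the R7 arrays out of its further analysis. Its methods give 3 arrays for each condition, whereas 2 are present here for R7 without stress. By that description, an R7 value is a mean over seeds at unlike points of the same transition.

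At R6 the green seed fills the pod cavity and the embryo is still laying down protein, oil and starch under the control of a small group of seed regulators. R7 marks the start of physiological maturity, when import from the mother plant ends, chlorophyll is taken apart, and the embryo makes the proteins and sugars that protect dry cells. The seed coat, a maternal tissue, finishes its development earlier than the embryo and is mostly dead in a mature seed.

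Soybean probe sets, the sets of oligonucleotides that report 1 transcript or, for some sets, several transcripts, numbered 37593. Signals are on the log2 scale, so that a difference of 1 is a 2-fold change. The test took in the 19194 probe sets with a mean signal over 3 in 1 or more of the 6 conditions of the series. On the 5 arrays 14642 to 15403 soybean probe sets had a signal above 3. Probe sets for 2 soybean pathogens on the same array gave a background level of 1.02, and a gene at or below it in 1 group has its fold given as a lower bound. Replicate arrays correlated at 0.989 to 0.994 at R6 and at 0.981 at R7. Some control probe sets for RNA differed between the stages. The 18S ribosomal RNA control had signals of 11.05, 11.09 and 11.10 at R6 and of 6.32 and 8.34 at R7, while it was 9.69 to 10.26 on the 3 stressed R7 arrays and 10.85 and 10.99 on the non-stressed R8 arrays. For the sucrose binding protein, a control measured at both ends of the transcript, the 3′ minus 5′ signal was 3.24 to 3.52 at R6 and 6.91 and 5.57 at R7, with 5.11 to 5.85 on the stressed R7 arrays. The 3′ actin control went from 8.15 to 8.30 at R6 to 5.01 and 5.10 at R7 and was 4.67 and 4.83 at R8. The same 3′ minus 5′ measure for a glutathione transferase control was 1.37 to 1.56 at R6 and 1.81 and 1.11 at R7, so that its R7 arrays lay on either side of R6. The part of these RNA differences in the results that follow was not tested.

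Embryo markers were present at both stages. Their summed signal (6 genes, log2 of the sum) was 14.79 to 14.84 at R6 and 14.05 to 14.15 at R7. A sum follows mostly the brightest genes. By the test described below, 3 of the 6 were called lower at R7 and none higher, with a median log2 change of -0.86. The summed signal of 4 seed coat markers was 9.24 to 9.84 at R6 and 3.93 to 3.97 at R7. Of 11 root nodule genes, which a seed should lack, 10 were below the signal limit in every condition, and the remaining one, NOD33, gave 7.09, 6.65 and 6.05 at R6 and 2.54 and 2.35 at R7. In whole seeds, fewer cells of a type and less RNA per cell cannot be told apart.

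The stages differed over a wide part of the measured transcriptome. By limma, 9583 of 19194 probe sets (49.9%) were called, which took a change of 2-fold or more together with an adjusted p not above 0.05. Of these 5128 (26.7% of those tested) rose and 4455 (23.2%) fell from R6 to R7. Which direction held more calls depended on the signal filter. The falls reached further. A change of at least 16-fold was seen for 353 probe sets that fell and for 113 that rose, and 556 fell to the background level while 352 rose from it. The median log2 change over all tested probe sets was 0.15. For 16171 of the 19194 (84.3%), called or not, the R6 and R7 arrays did not overlap. The probe sets tested pair with 4364 genes, of which 957 (21.9%) rose and 1156 (26.5%) fell, with a median of -0.08, and the counts of gene groups below are to be read against these shares. Among the 696 genes with a name of their own, 159 rose and 225 fell. The gene groups hold only such named genes, of which a larger share fell than of all 4364 genes. Values are given as log2 fold change ± SE of the fit with limma's adjusted p, and a gene is said to rise or fall where it was called.

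The largest fall among named genes was that of GASA12, a small cysteine-rich peptide of a family induced by gibberellin. Its signal was 9.99, 10.21 and 10.26 at R6 and 1.85 and 1.08 at R7. The R6 arrays lay far above the R7 arrays, which were near the background, a log2 fold change of -8.69 ± 0.27 (412-fold, adjusted p = 1.68e-11). ADR11, first described as an mRNA that auxin lowers, had signals of 11.32, 11.24 and 11.25 at R6 and 3.67 and 2.98 at R7, a change of -7.95 ± 0.22 (247-fold). HPS, the hydrophobic protein that coats the seed surface, was at 9.71, 9.26 and 9.11 at R6 and 3.41 and 3.20 at R7. It changed by -6.05 ± 0.27 (66.3-fold, adjusted p = 3.07e-10), and no R7 array came near an R6 array. Among the 12 largest falls were 2 enzymes of soyasaponin synthesis. SGT2, a galactosyltransferase acting on soyasapogenol B glucuronide, had signals of 7.70, 7.62 and 7.71 at R6 and 2.14 and 1.27 at R7 (-5.97 ± 0.27), and GT4, whose synonym is Sg-1, the locus for the terminal sugar of group A saponins, had signals of 6.29, 6.22 and 6.06 at R6 and 0.77 and 0.94 at R7 (-5.34 ± 0.20, at least 36-fold). CYP93E1, the hydroxylase that works earlier on the same triterpene skeleton and was looked up after these values were seen, was at 10.99, 11.03 and 11.01 at R6 and 8.89 and 8.88 at R7 (-2.13 ± 0.16). SSTP-1 fell at least 50.4-fold, from 7.57, 6.43 and 6.03 to 0.24 and 0.23, but a second probe set for this gene rose by 1.52.

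**Figure D1:**
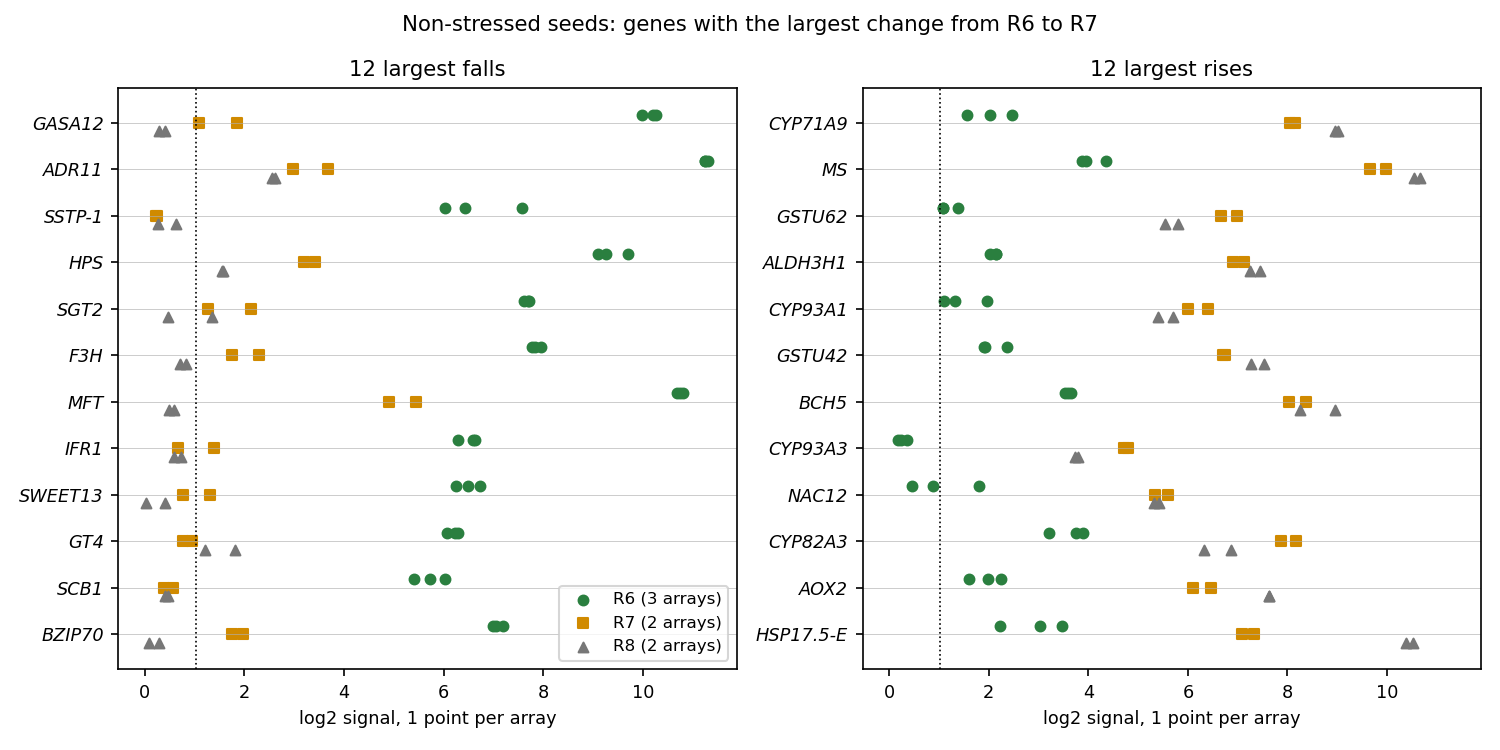
Log2 signal of the 12 genes with the largest fall (left) and the 12 with the largest rise (right) from R6 to R7 in non-stressed seeds, with 1 point per array (circles R6, squares R7, triangles R8) and the background level of 1.02 as a dotted line. The genes were chosen among called genes whose R6 and R7 arrays do not overlap, which holds for 84.3% of all probe sets tested. GASA12 moves from signals of 9.99 to 10.26 at R6 to 1.08 and 1.85 at R7.

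Cytochromes P450 and glutathione transferases made up 6 of the 12 largest rises. CYP71A9, a cytochrome P450, had signals of 1.57, 2.47 and 2.02 at R6 and 8.06 and 8.15 at R7. Both R7 arrays were far above the 3 R6 arrays, and the change was 6.08 ± 0.26 (67.9-fold, adjusted p = 1.64e-10). The glutathione transferase GSTU62, of the plant class that conjugates foreign and oxidised compounds, was at 1.08, 1.09 and 1.39 at R6 and 6.67 and 6.98 at R7 (5.64 ± 0.36, 50-fold). GSTU42 of the same class rose by 4.66 ± 0.23. ALDH3H1, an aldehyde dehydrogenase, had signals of 2.15, 2.15 and 2.03 at R6 and 7.13 and 6.91 at R7 (4.91 ± 0.18, 30.1-fold, adjusted p = 5.3e-11). These values belong to 1 of the 2 probe sets of ALDH3H1, and the other, which was the brighter on the 5 arrays compared, rose by 1.36 only and would not rank among the 12. MS was at 3.96, 3.87 and 4.36 at R6 and 9.98 and 9.66 at R7 (5.76 ± 0.60), and then 10.66 and 10.55 at R8. CYP93A3 rose at least 13.3-fold from signals at the background (0.24, 0.35 and 0.18) to 4.71 and 4.79, and CYP82A3 rose by 4.41 ± 0.21. The small heat shock protein HSP17.5-E, a chaperone that seeds make as they dry, was at 2.23, 3.03 and 3.47 at R6 and 7.09 and 7.33 at R7 and then at 10.39 and 10.53 at R8. Its SE was larger than that of the other genes here (4.30 ± 1.05, adjusted p = 0.00201). Its second probe set rose by 2.30.

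The regulators of embryo development went down together. All 5 measured members of this list fell, with a median log2 change of -3.67. LEC1-A, a subunit of the NF-Y complex that keeps embryos in their filling programme in Arabidopsis, had signals of 5.30, 5.20 and 5.49 at R6 and 0.59 and 0.51 at R7. The R6 arrays were clearly above background and the R7 arrays at background, at least 19.8-fold lower (log2 fold change -4.78 ± 0.14, adjusted p = 9.23e-12). MFT, a relative of FLOWERING LOCUS T that acts in seeds and their germination, was at 10.69, 10.75 and 10.80 at R6 and 5.45 and 4.91 at R7, and at 0.48 and 0.59 at R8. Its R7 arrays lay midway between those of R6 and R8, with a change from R6 of -5.57 ± 0.18 (47.4-fold). NF-YA13 changed by -3.67 ± 0.32 and WRI1B, a relative of the Arabidopsis factor that switches on fatty acid synthesis, fell at least 4.13-fold (3.05, 2.89 and 3.26 at R6 and 0.36 and 0.09 at R7). NF-YA05 had the smallest change, -1.21 ± 0.18, and reached 1.46 and 1.62 at R8.

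Storage protein transcripts, by contrast, were still abundant at R7. Of 12 measured storage proteins and seed albumins 3 fell and 1 rose, with a median of -0.64. GY1, a glycinin subunit of the main globulin of the seed, had signals of 13.18, 13.14 and 13.14 at R6 and 12.78 and 12.74 at R7. The R7 arrays were the lower ones, but the difference of -0.39 ± 0.34 was not called (adjusted p = 0.306), and the R6 values lie close to the highest signal in the table, 13.28, where a change can go unseen. GY2 (signals of 11.83, 11.79 and 11.86 at R6 and 11.59 and 11.40 at R7) and the beta subunit of conglycinin, CG-BETA-1 (change -0.57 ± 0.23), were likewise not called, nor was the basic 7S globulin BG7S-1 (12.10, 12.06 and 12.08 at R6 and 12.32 and 12.14 at R7). The glycinin GY5 changed by -1.43 ± 0.17 (2.7-fold) and stayed at 11.07 or more. Larger falls were those of A1, the albumin-1 precursor, with 11.25, 10.80 and 10.62 at R6 and 5.34 and 6.09 at R7 (-5.18 ± 0.41, 36.2-fold), and of CG-1, another conglycinin (6.54, 6.54 and 6.70 at R6 and 2.56 and 3.38 at R7). SBP65, a seed biotin-binding protein of the late embryogenesis kind, was the one that rose, from 10.97, 10.91 and 10.85 to 12.12 and 12.12.

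Protease inhibitors, which make up much of the albumin fraction, also divided. Of 9 measured 5 fell and 1 rose, and without R7 replicate 2 the fallen were 3. The Kunitz inhibitors KTI-3 (8.35, 8.48 and 8.55 at R6 and 4.06 and 3.65 at R7) and KTI-2 (9.55, 9.47 and 9.47 at R6 and 5.62 and 5.77 at R7) fell 24.3-fold and 13.9-fold. KTI3, the classical Kunitz inhibitor of the seed, was at 12.56, 12.52 and 12.52 at R6 and 11.35 and 11.42 at R7. Its R7 arrays differed from its R6 arrays by -1.15 ± 0.19 and remained among the high signals of the array, whereas at R8 they were 6.60 and 6.32. KTI1 (-1.02 ± 0.19) and the Bowman-Birk inhibitor D-II (-1.05 ± 0.15) were just past the 2-fold limit. The Bowman-Birk inhibitor BBI was not called (12.21, 12.28 and 12.09 at R6 and 11.82 and 11.76 at R7), and BBI-1 of the same family rose from 4.08, 4.63 and 4.30 to 7.06 and 7.09 (6.67-fold).

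Transcripts of desiccation protection held more rises than falls, while most were not called. Among 31 late embryogenesis abundant proteins, dehydrins and seed maturation proteins, all above the signal limit, 11 rose, 1 fell and 19 were not called, with a median of 0.79. The share that rose is above that of all genes (21.9%), and the share that fell is below it (26.5%). PM29, a seed maturation protein, had signals of 8.90, 8.99 and 8.82 at R6 and 11.18 and 11.08 at R7. The groups were well apart (2.23 ± 0.12, 4.68-fold, adjusted p = 1.6e-09), and R8 stayed at 11.41 and 11.39. PM39 (9.83, 9.61 and 9.58 at R6 and 11.74 and 11.89 at R7) and PM27 (9.07, 9.09 and 8.87 at R6 and 10.65 and 10.78 at R7) rose to R7 and were lower again at R8 (11.06 and 10.84 and 9.05 and 8.83). The dehydrin MAT1, a hydrophilic protein that covers membranes and proteins on drying, reached 12.30 and 12.44 from 10.92, 11.01 and 10.85 (1.44 ± 0.14). ERD15 rose 4.28-fold. The member that fell was LEA-2 (5.59, 5.59 and 5.29 at R6 and 4.50 and 4.03 at R7), and its call did not hold without R7 replicate 2. GOLS, galactinol synthase, which starts the raffinose sugars of dry seeds, had signals of 8.44, 8.48 and 8.33 at R6 and 10.35 and 10.48 at R7 (2.00 ± 0.10, 4-fold).

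**Figure D2:**
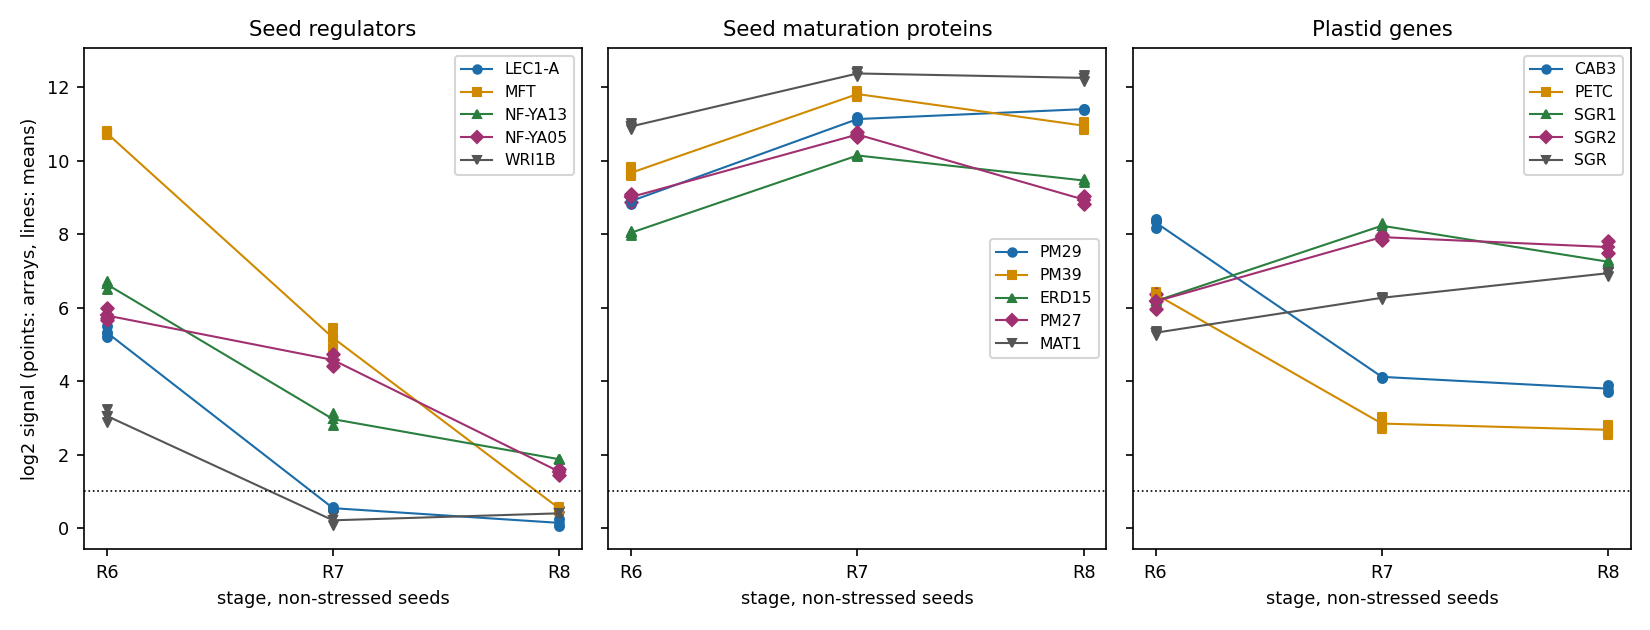
Log2 signal of seed regulators (left), seed maturation proteins (middle) and plastid genes (right) in non-stressed seeds at R6 (3 arrays), R7 (2 arrays) and R8 (2 arrays), with points for arrays, lines for means and the background level of 1.02 dotted. LEC1-A reaches background at R7, MAT1 rises to signals of 12.30 and 12.44, and CAB3 falls while SGR1 and SGR2 rise.

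Many genes of oil synthesis and of sugar transport fell. In the list of fatty acid and oil synthesis 9 of 17 measured genes fell and none rose by limma (median -1.02, with WRI1B counted here also). ACCB-2, the biotin carrier subunit of plastid acetyl-CoA carboxylase, the first step of fatty acid synthesis, had signals of 6.18, 6.31 and 6.41 at R6 and 2.04 and 1.29 at R7. It fell 24.9-fold (-4.64 ± 0.21, adjusted p = 3.46e-10). The desaturases FAD2-1A, which makes linoleate in seeds, and FAD3B and FAD3C, which make linolenate, changed by -2.29 ± 0.18, -2.50 ± 0.14 and -2.43 ± 0.16, and FAD2-1A kept a high signal (9.58 and 9.53, from 11.78, 11.88 and 11.88). KASII-A, the enzyme that lengthens palmitate, and SACPD-C, the stearoyl desaturase, changed by -2.61 ± 0.14 and -2.13 ± 0.10. Of 6 measured SWEET genes, which carry sugars across membranes, 4 fell and 1 rose. SWEET13 was at 6.48, 6.25 and 6.74 at R6 and 0.76 and 1.31 at R7, and SWEET24 at 9.01, 8.56 and 8.37 at R6 and 3.97 and 3.54 at R7. R6 and R7 arrays of both were far apart (43.8-fold and 29.7-fold), and SWEET17 (at least 9.65-fold) and SWEET42 (3.07-fold) changed the same way. SWEET31 was the exception, rising from 4.78, 4.88 and 4.99 to 7.61 and 7.69.

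Other enzymes of sugar and starch were evenly divided, with 3 of 7 higher and 3 lower. GBSSIa, the granule-bound enzyme that makes amylose, changed by -2.32 ± 0.30, the sugar carrier STP1 by -1.62 ± 0.24 and sucrose synthase SS, which splits the sucrose that arrives in a filling seed, by -1.07 ± 0.14. CIF1, an inhibitor of invertase, rose by 1.45 ± 0.16 along with GOLS. The beta-amylase BMY2 was at 4.02, 3.37 and 2.65 at R6 and 4.60 and 4.13 at R7 (1.02 ± 0.39), and its call was lost without R6 replicate 2 or 3 or R7 replicate 1, with array medians centred (0.95) and with the replicate block (0.86).

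Plastid genes moved in both directions. Of 10 measured genes of the light reactions and rubisco activase 4 fell and 1 rose (median -0.34). CAB3, a chlorophyll-binding protein of the light-harvesting antenna, had signals of 8.17, 8.37 and 8.42 at R6 and 4.13 and 4.10 at R7. Its R7 arrays were 18.4-fold lower (-4.21 ± 0.17, adjusted p = 1.44e-10), close to R8 (3.89 and 3.72). The gene has 4 probe sets, of which 3 fell and 1 rose by 1.42. PETC, the Rieske protein of the cytochrome b6f complex, was at 6.31, 6.34 and 6.44 at R6 and 3.02 and 2.69 at R7 (-3.51 ± 0.23, 11.4-fold). RCABETA, a form of rubisco activase, and ELIP, an early light-induced protein, fell from low signals (3.15, 3.34 and 3.18 and 3.20, 3.18 and 3.01 at R6). FTRC, the catalytic subunit of ferredoxin-thioredoxin reductase, rose by 1.27 ± 0.14.

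The stay-green genes, whose products help to take chlorophyll out of its proteins at the start of degreening, rose over the same interval. SGR1, with the synonym D2, had signals of 6.19, 6.25 and 6.11 at R6 and 8.15 and 8.30 at R7, and SGR2 had signals of 6.37, 6.17 and 5.97 at R6 and 7.99 and 7.85 at R7. R6 and R7 arrays did not overlap for either gene, as for 84.3% of probe sets tested. The changes were 2.04 ± 0.13 (4.12-fold, adjusted p = 7.61e-09) and 1.74 ± 0.21 (3.35-fold, adjusted p = 3.85e-06). The third gene, SGR, was at 5.26, 5.30 and 5.38 at R6 and 6.25 and 6.29 at R7 and then 7.01 and 6.86 at R8. It was higher at R7 by 0.96 ± 0.18, just under the 2-fold limit. Within the list of 3 genes 2 thus rose and none fell.

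Pigment and antioxidant pathways of the plastid were split between steps. Of 11 measured genes for carotenoids, tocopherols and related isoprenoids 3 rose and 3 fell. BCH5, a beta-carotene hydroxylase, which makes xanthophylls, had signals of 3.66, 3.54 and 3.59 at R6 and 8.03 and 8.37 at R7. It rose 24.3-fold (4.60 ± 0.21), and CYP97C10, of the P450 family of carotene hydroxylases, rose by 2.11 ± 0.25. ZEP, the epoxidase that follows them, changed by -2.37 ± 0.19. For tocopherols, HPPD, which makes the aromatic head group, rose with all 3 of its probe sets (1.64 ± 0.19), whereas HPT1, the prenyltransferase that joins head and tail, fell (-2.75 ± 0.25). VTE2-2, a related prenyltransferase, fell as well (-2.12 ± 0.13). CPX, coproporphyrinogen oxidase of haem and chlorophyll synthesis, rose by 1.19 ± 0.11. The galactolipid synthases MGD1 (1.34 ± 0.21) and DGD1 (1.06 ± 0.21) rose, the latter not past 2-fold without R7 replicate 2 or under 2 other normalizations.

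Calls in flavonoid synthesis were all falls, whereas those in its isoflavonoid branch were mostly rises, a contrast for which no test between the lists was run. Of 17 measured genes of phenylpropanoids and flavonoids 9 fell, 8 were not called and none rose by limma, with a median of -1.09. F3H, flavanone 3-hydroxylase, which commits naringenin to flavonols and anthocyanins, had signals of 7.83, 7.95 and 7.78 at R6 and 1.74 and 2.29 at R7. R7 arrays were 57.1-fold lower (-5.83 ± 0.24, adjusted p = 1.18e-10). The next steps fell as well. DFR1, dihydroflavonol reductase, went from 4.81, 4.40 and 4.50 to 0.24 and 1.11 (at least 11.7-fold), and ANS2, anthocyanidin synthase, from 5.16, 5.65 and 5.27 to 0.49 and 0.94 (at least 20.3-fold). UGT78K1, which glucosylates anthocyanidins, was at least 6.82-fold lower, and the chalcone isomerase CHI2-A at least 10.3-fold. LAR1, the reductase for catechins, fell at least 4.11-fold, from 2.72, 3.22 and 3.24.

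Of 14 measured isoflavonoid and pterocarpan genes 8 rose, 3 fell and 3 were not called (median 1.21). CYP93A1, the pterocarpan hydroxylase of the phytoalexin glyceollin, had signals of 1.33, 1.97 and 1.11 at R6 and 6.41 and 6.01 at R7. The R7 arrays were 26.7-fold higher (4.74 ± 0.30, adjusted p = 6.81e-09). CHR1, chalcone reductase, which feeds daidzein, was at 2.80, 2.92 and 3.03 at R6 and 6.31 and 5.91 at R7 (3.19 ± 0.47), and IF7MaT, which adds malonyl groups to isoflavone glucosides, at 4.63, 4.65 and 5.06 at R6 and 8.15 and 7.96 at R7 (3.27 ± 0.14). The gene symbol IFR, an isoflavone reductase, rose at least 15.4-fold (0.84, 0.51 and 1.02 at R6 and 5.06 and 4.88 at R7). IFR1 and IFR2, named as isoflavone reductases too, changed by -5.49 ± 0.28 and -1.42 ± 0.14, and CHR5 by -3.17 ± 0.27. The probe set of IFR carries the suffix of the array's design for sets that match several transcripts, and that of CHR5 does also. Related genes may thus share these signals.

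**Figure D3:**
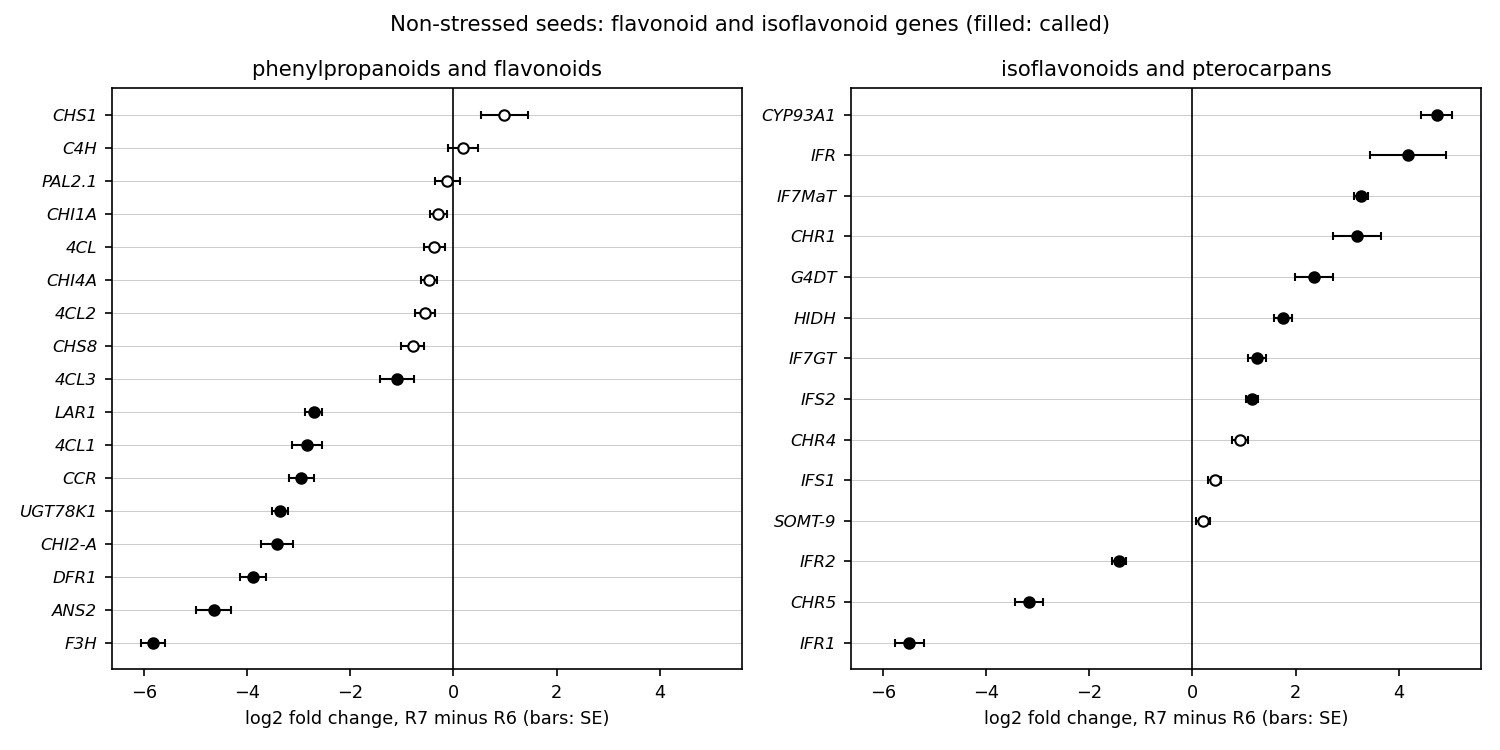
Log2 fold change from R6 to R7 in non-stressed seeds (3 and 2 arrays) for the 17 measured genes of phenylpropanoids and flavonoids and the 14 of isoflavonoids and pterocarpans, with the SE of the fit as bars and filled points for called genes. Flavonoid genes lie left of 0 apart from 2 that were not called, while 8 isoflavonoid genes lie right of 0 as calls.

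In the list of seed coat surface and peroxidase 2 genes lost most of their signal. Of the list's 3 genes, HPS and SCB1, a protein of developing seed coats, fell, the latter from 6.02, 5.73 and 5.40 to 0.39 and 0.57 (at least 25.9-fold). The peroxidase Ep was already low (2.65, 2.28 and 1.48 at R6 and 1.24 and 1.76 at R7) and not called. The seed coat markers were HPS, SCB1, Ep and LAR1, with ANR1 below the signal limit. Their summed signal, given earlier, came mostly from HPS. It fell, as did the flavonoid genes above, of which LAR1 is also one. The part of the seed coat in the flavonoid values was not tested.

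Hormone genes gave a mixed picture with a clear group. Of 9 measured GASA peptides 8 fell and none rose by limma, with a median of -2.55. GASA4 had signals of 5.64, 5.56 and 5.17 at R6 and 1.22 and 1.58 at R7 and GASA3 of 5.03, 5.21 and 5.21 at R6 and 2.1 and 1.01 at R7. All R7 arrays of these 2 genes were low (-4.05 ± 0.31 and -3.60 ± 0.30), and GASA13 fell at least 4.66-fold. Of 3 gibberellin enzymes measured, the 2-oxidases GA2OX8 (6.83, 6.76 and 6.78 at R6 and 9.69 and 9.58 at R7) and GA2OX6, which inactivate the hormone, rose by 2.84 ± 0.15 and 1.49 ± 0.32. For ethylene, ACS1, the synthase of its precursor, was at 6.80, 6.46 and 6.29 at R6 and 1.82 and 1.53 at R7. It fell 28.6-fold (-4.84 ± 0.24), whereas the receptor gene EIN4 rose by 2.35 ± 0.30. Of 10 genes for jasmonate and lipoxygenases 5 fell and 2 rose. The allene oxide cyclases AOC3 (6.80, 6.36 and 6.30 at R6 and 2.56 and 1.22 at R7) and AOC4 (6.41, 6.24 and 6.04 at R6 and 1.75 and 1.83 at R7), which close the ring of the jasmonate precursor, changed by -4.60 ± 0.34 and -4.44 ± 0.23. The seed lipoxygenase LOX2 changed by -1.94 ± 0.16 from a high signal at R6. AOS1, the enzyme before the cyclases, and COI1, the jasmonate receptor, rose (1.98 ± 0.16 and 3.00 ± 0.18). Of the 5 probe sets of COI1 4 rose, and the lowest changed by 0.82.

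Transcription factor families differed in their direction. Of 11 measured NAC genes 7 rose and 3 fell (median 1.34). NAC12 was at 1.80, 0.89 and 0.45 at R6 and 5.33 and 5.61 at R7, a rise of 4.43 ± 0.68 (adjusted p = 3.9e-05). NAC51 rose at least 8.47-fold from background and NAC26 by 2.87 ± 0.45, while NAC018 changed by -1.65 ± 0.24. Of 9 heat shock factors 6 rose and 2 fell (median 1.58), in plants that had not been moved to the hot greenhouse. HSF-03 had signals of 3.68, 3.85 and 3.84 at R6 and 5.77 and 5.96 at R7 and HSF-35 of 3.90, 3.14 and 3.20 at R6 and 5.85 and 5.44 at R7. HSF-03 and HSF-35 rose by 2.07 ± 0.12 and 2.23 ± 0.30. HSF-01, counted as a fall, changed by -2.15 ± 0.14, but its second probe set was called higher, with a change of 2.71. DREB2A2, a factor of drought and heat responses, was at 5.74, 5.67 and 5.73 at R6 and 9.10 and 9.40 at R7 (3.54 ± 0.13, 11.6-fold, adjusted p = 5.55e-11).

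Of 29 MYB genes 11 rose and 3 fell, with MYB79 (1.67, 0.93 and 1.44 at R6 and 4.89 and 4.98 at R7) rising by 3.59 ± 0.20 and MYB172 (5.10, 5.45 and 5.28 at R6 and 0.68 and 0.66 at R7) falling at least 19.1-fold. MYB184 rose at least 5.61-fold, to 3.85 and 3.17. The 20 WRKY genes, a family tied to defence and senescence, were split, 6 higher and 8 lower. WRKY53 rose from 1.39, 1.36 and 1.49 to 4.53 and 4.79 and WRKY36 by 3.19 ± 0.21, while WRKY10 changed by -2.27 ± 0.23. In the bZIP family, which holds the abscisic acid response factors, 15 of 38 fell and 8 rose. BZIP70 had signals of 7.05, 7.0 and 7.20 at R6 and 1.97 and 1.74 at R7. It lost nearly all of its signal (-5.23 ± 0.17, 37.4-fold, adjusted p = 2.22e-11), BZIP62 fell at least 21.9-fold, and BZIP95 rose by 2.11 ± 0.11.

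Genes of respiration and redox balance moved in both directions. All 3 alternative oxidases, which let mitochondria pass electrons to oxygen without making ATP, rose. AOX2 had signals of 2.25, 1.98 and 1.61 at R6 and 6.11 and 6.46 at R7, and 7.62 and 7.63 at R8. The rise to R7 was 4.34 ± 0.24 (20.2-fold), and AOX3 rose by 1.71 ± 0.29. AOX1 rose at least 3.7-fold, but it passed the signal limit only through conditions other than the 2 compared. Among 11 antioxidant enzymes 4 fell and 3 rose. The catalase CAT4, which clears hydrogen peroxide in peroxisomes, was at 7.30, 7.46 and 7.31 at R6 and 10.53 and 10.54 at R7 (3.17 ± 0.11, adjusted p = 3.6e-11). The iron superoxide dismutases SODB (9.0, 9.0 and 9.05 at R6 and 5.76 and 5.87 at R7) and SODB2, which plants keep in plastids, changed by -3.20 ± 0.18 and -3.82 ± 0.21, and the dehydroascorbate reductase DHAR4 by -3.18 ± 0.16. APX1, an ascorbate peroxidase counted as a rise, changed by 1.18 ± 0.13. Of its 4 probe sets, however, 2 rose and 2 fell, and the lowest changed by -3.24. Of 18 glutathione transferases 7 rose and 2 fell, and of 15 cytochromes P450 8 rose and 4 fell. Of 6 heat shock proteins 2 rose and 1 fell. The rise of HSP90A1 (2.12 ± 0.92, adjusted p = 0.0495) was lost on leaving out any of the 5 arrays and under 5 other settings.

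Several lists of assimilation and growth held more falls than rises, with sulphur assimilation as an exception. Of 17 measured genes for amino acids and nitrogen assimilation 9 fell and 2 rose (median -1.24). The glutamine synthetase GS1GAMMA2 had signals of 6.80, 6.60 and 6.34 at R6 and 1.77 and 1.42 at R7. It fell 31.7-fold (-4.99 ± 0.33), and the glutamate dehydrogenase GDH1 at least 10.7-fold. A second glutamine synthetase, GS1alpha, went the other way (6.85, 7.02 and 6.97 at R6 and 9.34 and 9.85 at R7, 2.65 ± 0.25), and the nitrite reductase NIR rose by 2.66 ± 0.16. EU3, an accessory protein for urease, was at 10.07, 10.13 and 10.18 at R6 and 5.68 and 5.55 at R7 (-4.52 ± 0.18, 22.9-fold), and it was the only one of 5 ureide and urease genes to be called. Of 7 sulphur assimilation genes 3 rose and 1 fell, and among those that rose were the serine acetyltransferase SAT1 (1.79 ± 0.20) and the cysteine synthase OAS-TL2 (2.29 ± 0.13).

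Of 12 aquaporins, the water channels of plasma membrane and tonoplast, 6 fell and none rose by limma. PIP2-8 went from 8.94, 9.05 and 9.13 to 5.72 and 5.13 (12.2-fold). Of 8 genes for 14-3-3 adaptor proteins 5 fell, SGF14n at least 8.92-fold. In the cell wall list 6 of 10 fell and 1 rose. The proline-rich wall protein PRP3 had signals of 7.49, 7.13 and 6.88 at R6 and 1.86 and 2.22 at R7. Its change of -5.12 ± 0.19 (34.8-fold) was the greatest of the list, and the expansin EXP4, which loosens walls in growing cells, fell at least 10.8-fold. The malate dehydrogenase MDH-1 changed by -3.22 ± 0.13 with all 3 of its probe sets.

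**Figure D4:**
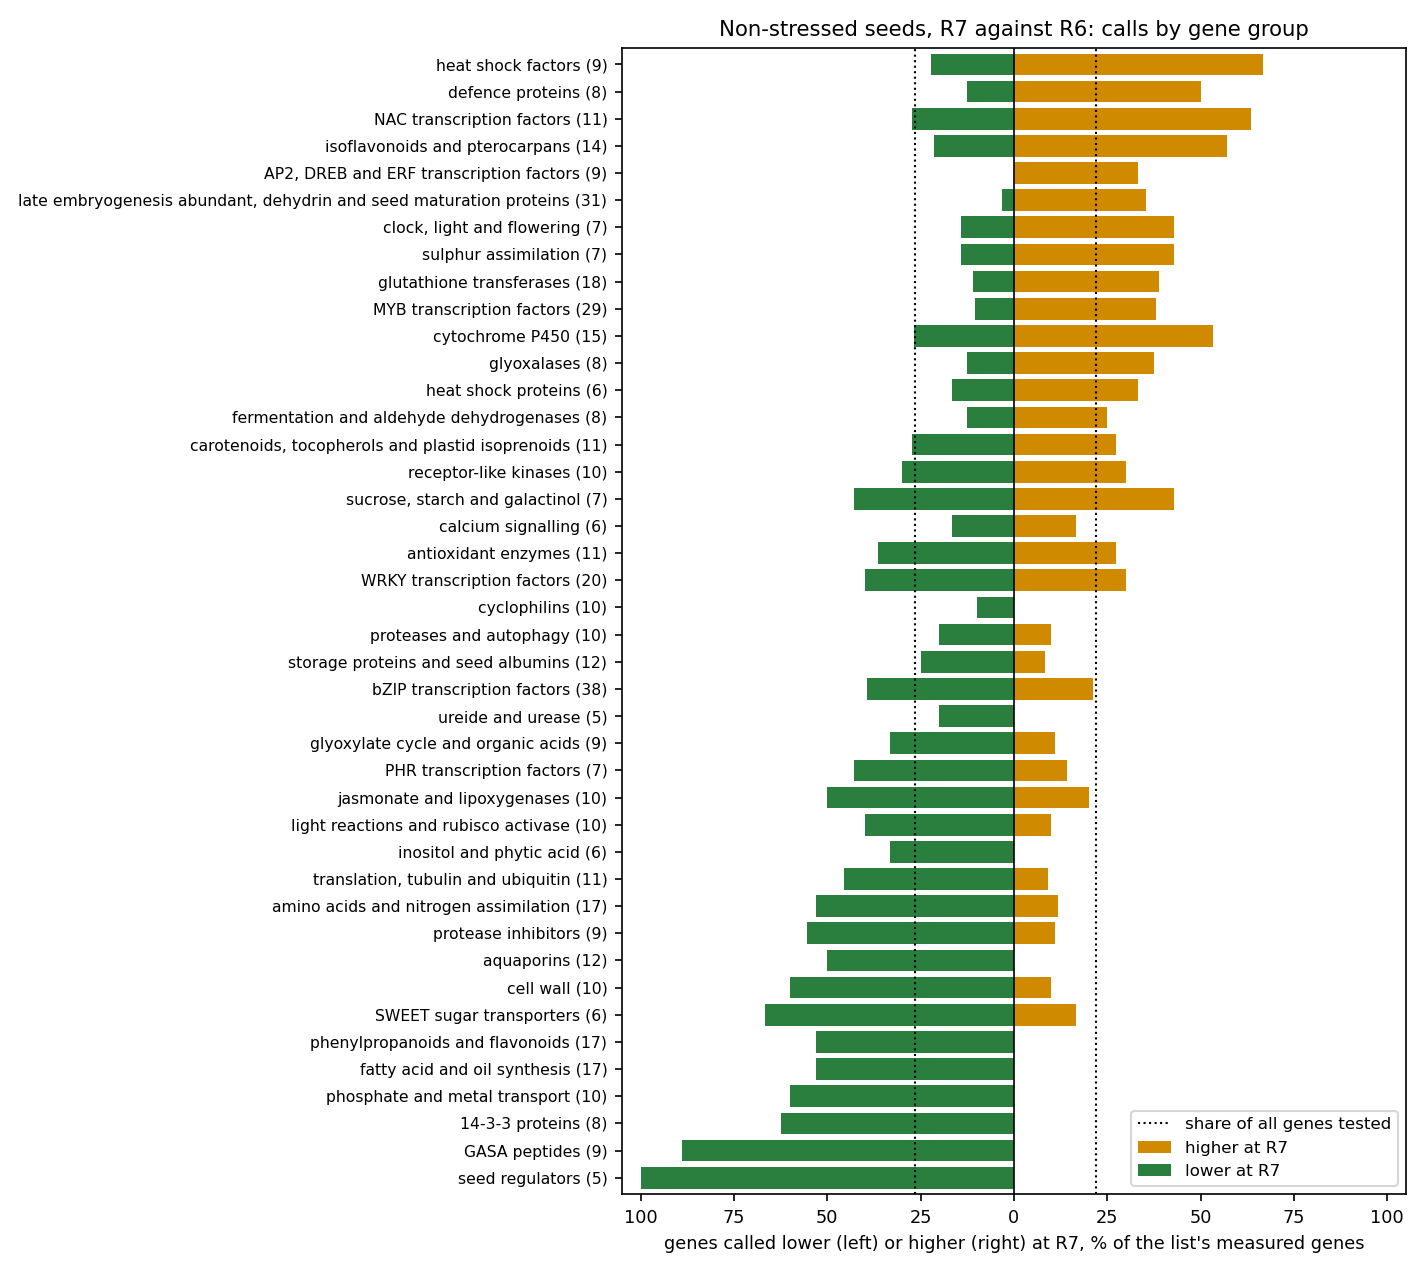
Share of each gene group's measured genes called lower (left) or higher (right) at R7 than at R6 in non-stressed seeds (2 and 3 arrays), for groups of at least 5 genes, whose numbers stand in brackets. The dotted lines mark the shares of all genes tested, 26.5% lower and 21.9% higher, and the 5 seed regulators and 8 of 9 GASA peptides are at the lower end while 6 of 9 heat shock factors are at the upper. The groups hold only named genes, of which a larger share fell than of all genes.

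The same interval was measured in seeds from stressed plants, on 3 arrays at each stage that the comparison above does not share. There 2999 probe sets (15.6%) rose and 3837 (20.0%) fell, and of genes with 1 probe set each 15.4% rose and 20.7% fell. The difference between the 2 changes was itself tested, and 7478 of 19194 probe sets (39.0%) had a change without stress that differed from the change under stress, 4187 (21.8%) in the higher direction without stress and 3291 in the lower. Over 4364 genes the shares were 15.6% higher and 20.0% lower. The excess of higher differences among probe sets was reversed with array medians centred (3633 higher and 3892 lower). In both groups of R7 arrays the ribosomal RNA control was lower than at R6, and lower without stress than under stress by the values above. The cytochrome P450 3′ minus 5′ and actin 3′ minus middle signals at R7 lay above R6 without stress, but not under stress. The part of these RNA differences in the differences from stress was not tested.

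For the 5 seed regulators none of the differences was called, and they ran from -0.45 for WRI1B to 0.99 for NF-YA05, the latter just under the 2-fold limit. GASA12 fell by 8.69 without stress and by 8.46 under stress, and the 95% interval of the difference was -1.01 to 0.56. The differences for the alternative oxidases and for SGR1 and SGR2 were not called either, with 95% intervals of -0.13 to 1.23 for AOX2, -0.19 to 0.57 for SGR1 and -0.19 to 1.02 for SGR2. Other groups held many called differences. In the flavonoid list 7 of 17 genes had a lower change without stress and 1 a higher one, and of the light reactions 5 of 10 had a lower one, CAB3 by -2.36 ± 0.23. The change was also lower without stress for 5 of 9 GASA peptides, 4 of 6 SWEET genes, 6 of 12 aquaporins and 5 of 8 genes for 14-3-3 proteins. Such a difference takes in the levels at both stages, and R6 levels could differ between the environments. The summed seed coat markers were 9.24 to 9.84 at R6 without stress and 5.83 to 6.66 at R6 under stress. At R7 they were 3.93 to 3.97 without and 3.17 to 3.59 under stress. The part of the R6 levels in the differences was not tested. For 5 of 12 storage proteins the change was higher without stress, as with GY1, whose change under stress was -2.41 ± 0.30. Among the protease inhibitors KTI3 changed by -3.61 ± 0.17 under stress. Of the MYB genes 11 of 29 and of the cytochromes P450 9 of 15 had a higher change without stress.

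On the values as deposited, 382 probe sets were called in opposite directions in the 2 environments, 309 of them higher at R7 without stress. Among named genes there were 8, which were picked out after their values were seen. CYP82A2, a cytochrome P450, had signals of 1.75, 1.46 and 1.49 at R6 and 3.45 and 3.91 at R7 without stress and of 6.63, 6.17 and 7.69 at R6 and 3.56, 4.05 and 3.92 at R7 under stress. The R7 arrays of both environments thus overlapped, while the stressed R6 arrays stood far above the others, and the changes differed by 5.09 ± 0.46 (adjusted p = 2.3e-06). NAC12 was at 6.0, 5.86 and 3.10 at R6 and 2.72, 3.33 and 4.07 at R7 under stress, a difference of 6.04 ± 0.91 (adjusted p = 0.000111), with replicate 3 of the stressed R6 seeds well below the other arrays of its group. Without that array the difference was 6.98. ICL1, isocitrate lyase of the glyoxylate cycle, rose from 1.91, 1.41 and 1.67 to 3.11 and 2.94 without stress and was 6.99, 6.78 and 6.40 at R6 and 4.57, 4.63 and 4.17 at R7 under stress. BZIP110, WRKY33, CYP83E8 and BMY2 rose without and fell under stress, and APX2 did the reverse. The calls of BMY2 and APX2 without stress did not hold when single arrays were left out.

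**Figure D5:**
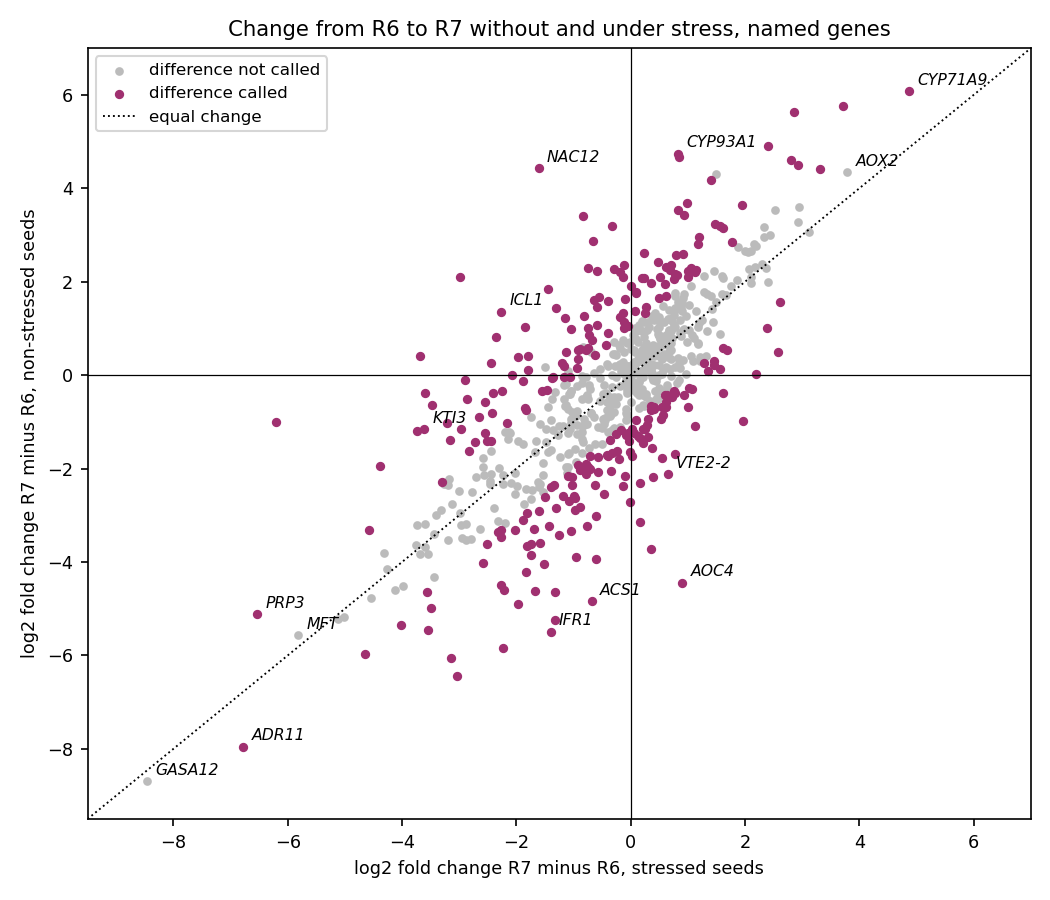
Log2 fold change from R6 to R7 without stress (vertical, 2 and 3 arrays) against that under stress (horizontal, 3 and 3 arrays) for the 696 named genes, coloured where the difference of the 2 changes was called, with a dotted line of equal change. GASA12, MFT and AOX2 lie on or near the line, AOC4 and ACS1 lie below it, and NAC12 and ICL1 lie in the sector of opposite directions.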

How the data were processed

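Whole-seed RNA had been labelled from its 3′ end and hybridized to the Affymetrix Soybean Genome array, 1 array per sample. The deposited values are log2 signals that the authors had corrected for background, brought to a common distribution and condensed into a single signal for each probe set (RMA, as the submitters' processing notes give it, and through ArrayAnalysis.org by the methods), with versions not given in the sources used here. They were used as deposited and all value columns were used. Such processing compresses large folds, makes low signals depend on the background removal, and assumes like signal distributions on all arrays.

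Soybean accounts for 37593 of the 61170 probe sets. The background level of 1.02 is the highest, over the 16 arrays, of the 95th percentile of 23350 probe sets for Phytophthora and cyst nematode. A linear model with 1 mean per condition over all 16 arrays was fitted with limma (version 3.58.1, R 4.3.3), and p-values are two-sided with Benjamini-Hochberg adjustment over 19194 probe sets. The fit has 10 residual degrees of freedom, and 1809 probe sets passed the signal limit only through conditions other than the 2 compared. Simulated data had these arrays, 19194 probe sets, equal means in all conditions and independent normal noise. At R7 without stress 100 probe sets were changed by each size, far fewer than were called in the real data. There 94% of changes of 1.5 and 96% of changes of 2.0 were found with 2 false calls in the R7 against R6 comparison. Of differences of 1.5, 79% were found with 6 false calls. These rates need not hold for the real arrays.

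Genes were named through the platform annotation and gene table at hand (RefSeq, Glycine_max_v4.0, of which no coordinates are printed because the array's build is not named), where 6010 of 6031 gene identifiers matched. Of the tested probe sets 5751 pair with 1 gene, 286 with several, which were not named, and 13157 with none listed. Where a gene had several, the one brightest on average over the arrays was taken. Of the 156 genes named in the text, 30 rest on a probe set that the array's design marks as matching several transcripts, so that related genes may share the signal. Named are the 12 largest rises and falls among called genes without overlap of arrays, up to 5 called members of each of 55 gene lists with further members where a list turns on them, and stay-green and chlorophyll-binding genes of the study. The comparison, the members and the lists were chosen with earlier results of these data known. The labels name no batch. No depth applies to arrays, whose number limits the precision.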

Additional observations from a re-analysis of the deposited data

Results flagged for a closer look

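For 93 of the 156 genes named in the text, most of which were named because they were called, the change from R6 to R7 without stress differed from the change under stress, by limma's test of the difference with the limits used throughout. Each value here is the log2 change without stress minus the log2 change under stress, so that a negative value means a change that was lower without stress, in some genes with opposite directions in the 2 environments. The share of all probe sets with such a difference was 39.0%, which is no reference for genes chosen by their calls. The differences farthest from 0 were those of NAC12 and CYP82A2 on the positive side and of AOC4 and ACS1 on the negative side. AOC4 had signals of 2.75, 2.26 and 2.97 at R6 and 3.96, 3.63 and 3.10 at R7 under stress, against 6.41, 6.24 and 6.04 at R6 and 1.75 and 1.83 at R7 without stress. For 23 of the genes the mean of at least 1 of the 4 groups lay at or below the background level of 1.02, so that the size of their difference depends on signals at background and is not a measured size. These are ANS2, BZIP62, CHI2-A, CYP93A3, DFR1, EXP4, Ep, GASA13, GT4, IFR, IFR1, LAR1, MYB172, MYB184, NAC51, NDR1b, PRP3, RCABETA, SCB1, SGF14n, SSTP-1, SWEET17 and UGT78K1.

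Among the genes with the largest falls the values were -1.17 for ADR11, -3.40 for SSTP-1, -2.91 for HPS, -1.32 for SGT2, -1.31 for GT4 and -3.90 for SCB1. For storage proteins and protease inhibitors the differences were 2.02 for GY1, 1.3 for GY5, 1.98 for CG-BETA-1, 1.1 for BG7S-1, 2.19 for KTI1 and 2.46 for KTI3. For seed maturation proteins the values were 1.33 for PM39 and 2.23 for ERD15. In oil and galactolipid synthesis the differences were -1.08 for ACCB-2, -1.11 for KASII-A, 1.01 for FAD2-1A, 1.47 for MGD1 and 1.11 for DGD1. For sugar transport and sugar enzymes the values were -1.91 for SWEET13, -1.59 for SWEET17, -2.92 for SWEET24, -1.38 for SWEET42, 1.20 for STP1 and 2.87 for BMY2. For genes of the light reactions the differences were -2.36 for CAB3, -1.64 for RCABETA and -2.32 for ELIP. For carotenoids, tocopherols and related isoprenoids the values were 1.79 for BCH5, 1.59 for CYP97C10, 1.74 for HPPD and -2.77 for VTE2-2. In the flavonoid pathway and the seed coat the differences were -3.59 for F3H, -3.32 for ANS2, -2.93 for DFR1, -2.17 for CHI2-A, -1.04 for UGT78K1, -2.69 for LAR1 and 2.84 for Ep. Among isoflavonoid genes the values were 3.92 for CYP93A1, 2.77 for IFR, -4.08 for IFR1 and 3.52 for CHR1.

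Among hormone genes the differences were -2.01 for GASA3, -2.54 for GASA4, -1.95 for GASA13, 1.06 for GA2OX8, 1.65 for EIN4, -4.16 for ACS1, -2.39 for AOC3, -5.34 for AOC4 and 2.45 for LOX2. For NAC and MYB factors the values were 6.04 for NAC12, 3.52 for NAC26, 2.71 for NAC51, -2.94 for MYB172 and 4.23 for MYB184. For WRKY and bZIP factors the differences were 2.37 for WRKY33, 1.61 for WRKY36, 1.76 for WRKY53, -2.24 for BZIP62, 1.1 for BZIP95 and 3.29 for BZIP110. For heat shock factors and DREB2A2 the values were -1.06 for HSF-01, 1.84 for HSF-03, 1.22 for HSF-35 and 2.71 for DREB2A2. Among cytochromes P450 the differences were 1.22 for CYP71A9, 1.56 for CYP93A3, 1.09 for CYP82A3, 5.09 for CYP82A2 and 2.75 for CYP83E8. For other enzymes of oxidation and conjugation the values were 2.78 for GSTU62, 3.82 for GSTU42, 2.50 for ALDH3H1 and -2.21 for APX2. In assimilation and organic acid metabolism the differences were -1.49 for GS1GAMMA2, 1.23 for OAS-TL2, -1.79 for MDH-1, 3.63 for ICL1 and 2.05 for MS. For water channels, adaptor proteins and cell wall the values were -1.87 for PIP2-8, -2.11 for SGF14n, 1.41 for PRP3 and -3.32 for EXP4. Tubulin genes had differences of -1.21 for TUBB3, -1.39 for TUBB and -2.05 for TUBB2. The defence, light and metal transport genes described under other observations had differences of 3.05 for OLPa, 1.34 for PR-10, -3.30 for NDR1b, 1.66 for PHYA and -2.25 for DMT1.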

How the results depend on the processing

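The count of 9583 called probe sets stayed within 9112 to 11281 under other signal filters and within 9511 to 9731 under other normalizations, arrays in the fit and variance settings. Without a limit on the fold it was 14647 (7960 higher and 6687 lower), and with a limit of 4-fold it was 3869 (1732 higher and 2137 lower). Leaving out each of the 5 arrays in turn gave 9438 to 9703 calls, of which 4883 to 5321 were higher and 4382 to 4555 lower. With array medians centred 4810 were higher and 4701 lower, which moves the balance of directions towards equality. Falls outnumbered rises with no filter on signal (5534 higher and 5735 lower) and with the signal limit at the background (5544 higher and 5737 lower). For the difference from the stressed seeds, the count of 7478 ran from 6834 to 8279 without single arrays and from 7276 to 8747 otherwise. Its balance of directions depended on the normalization. With array medians centred 3633 differences were higher without stress and 3892 lower, and with further quantile normalization 3844 and 3730. Equal replicate numbers at R6 and R7 did not mark like deviations (correlations of -0.0608 and -0.0653), so the numbers were not used as pairs. With the replicate block 9567 probe sets were called, and 7346 for the difference.

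Of 149 named genes that were called, 140 were called in the same direction under each alternative in which they were tested, and none of the 149 changed sign. AOX1, 1 of the 140, was not tested where the signal limit had to be passed in the 2 conditions compared. The others were APX1, APX2, BMY2, D-II, DGD1, HSP90A1, KTI1, LEA-2 and SS, whose changes lie close to the 2-fold or p limit. Of 93 called differences from stress, 76 held under each alternative. These differences for single genes and the list counts without single arrays were tried after the data were seen. The 2 arrays at R7 limit the precision there, changes under 2-fold were left uncalled by the limit itself, and signals near the background of 1.02 leave folds as lower bounds.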

Other observations

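Further gene groups moved between R6 and R7 in the non-stressed seeds. Beta-tubulins, the subunits of microtubules, were lower at R7. TUBB3 had signals of 8.43, 8.53 and 8.69 at R6 and 5.30 and 4.87 at R7, a log2 fold change of -3.46 ± 0.20, and TUBB and TUBB2 changed by -2.58 ± 0.11 and -2.15 ± 0.14. In the same list 4 ribosomal proteins were not called, and 5 of 11 genes fell against 1 that rose. Of 10 genes for the transport of phosphate and metals 6 fell and none rose by limma. Among them were the metallothionein MT2 (6.94, 6.63 and 6.94 at R6 and 4.07 and 4.08 at R7) and the metal transporter DMT1 (-2.38 ± 0.24). None of these was compared with another tissue.

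Of 8 measured defence proteins 4 rose and 1 fell, where 21.9% and 26.5% of all genes did. OLPa, an osmotin-like protein, was at 2.12, 2.05 and 1.72 at R6 and 4.17 and 4.36 at R7 and returned to 2.57 and 2.32 at R8. PR-10, a pathogenesis-related protein, rose by 1.95 ± 0.26 and NDR1b fell at least 5.52-fold. Phytochrome A, PHYA, the light receptor of dark-grown seedlings, had signals of 4.07, 3.74 and 3.67 at R6 and 5.68 and 5.5 at R7 and 6.64 and 6.85 at R8, a rise to R7 of 1.76 ± 0.21. Its R7 arrays lay between those of R6 and R8.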
